A study of Mus musculus with 10 samples.

Results

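The primitive endoderm is the layer of extraembryonic cells that separates from the pluripotent epiblast in the mouse blastocyst and later forms the visceral and parietal endoderm of the yolk sacs. FGF4 from epiblast cells acts through FGF receptors and ERK to turn on GATA6, and GATA4, SOX17 and SOX7 then act to fix the fate. The receptor PDGFRA and the endocytic adaptor DAB2 mark the committed cells, and CUBN and AMN form the receptor complex with which visceral endoderm takes up nutrients. ESCs grown with a MEK inhibitor are held on the epiblast side of this choice, because ERK signalling is blocked.

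The genes examined here were 10 textbook members of this lineage: *Gata6*, *Gata4*, *Sox17*, *Sox7*, *Hnf4a* and *Foxa2* (transcription factors), *Pdgfra* (a receptor) and *Dab2*, *Cubn* and *Amn* (endocytosis). They were found by symbol among the 51467 genes of the count table, and all 10 were matched. Levels were measured by QuantSeq, which sequences the 3′ ends of polyadenylated mRNAs, in 10 libraries of mouse ESCs grown in serum, LIF and the 2i inhibitors PD0325901 (MEK) and CHIR99021 (GSK3). There were 3 libraries of wild-type (WT) V6.5 cells and 3 of DGCR8 KO cells, which lack a subunit of the complex that cuts primary miRNAs. There were also 4 libraries of DDX6 KO cells, which lack an RNA helicase that acts in translational repression. The DDX6 KO libraries came from 2 CRISPR-Cas9 clones with 2 libraries each, so the DDX6 KO rests on 2 lines, and the sources used here do not give separate clones for the DGCR8 KO. All 3 genotypes shared the same medium, LIF and inhibitors, and nothing in the labels says whether replicates were separate cultures, so the p-values below measure the spread between these libraries.

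Each library held between 2131156 and 4745083 reads assigned to genes, and 3 reads, taken as the floor of detection, correspond to 0.665 to 1.43 CPM (reads of a gene over the library total, scaled with TMM factors). The targeted genes followed the labels. *Ddx6* lay between 502 and 583 CPM in WT, between 484 and 518 CPM in DGCR8 KO and between 25.6 and 149 CPM in DDX6 KO, and *Dgcr8* lay between 50.1 and 65.4 CPM in WT and between 9.11 and 15.4 CPM in DGCR8 KO. Markers of the naive epiblast, the state in which 2i holds ESCs, dominated all genotypes. Summed over 10 genes, they reached 4636 to 4994 CPM in WT, 4637 to 5018 CPM in DGCR8 KO and 5133 to 5366 CPM in DDX6 KO. The 10 primitive endoderm genes together reached 9.54 to 13.4 CPM in WT, 7.01 to 8.10 CPM in DGCR8 KO and 19.2 to 26.2 CPM in DDX6 KO, and most of the DDX6 KO sum was *Dab2*.

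*Dab2* was the only member measured well enough to test, and it moved in opposite directions in the knockouts. It was 2.95-fold higher in DDX6 KO than in WT (95% interval 1.86 to 4.69) and 5.14-fold lower in DGCR8 KO (1.99 to 13.2). Both DDX6 KO clones showed the increase. The other 9 members stayed at or near the floor in every genotype, with no library above 10 reads for any of them.

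*Dab2* (ENSMUSG00000022150, GRCm38 chr15:6386748-6440705, plus strand) encodes a clathrin adaptor that binds the tails of LDL receptor family members, and in the embryo it is needed by the visceral endoderm. No exon of another annotated gene overlaps its exons. The WT libraries held 17, 21 and 16 reads of *Dab2*, which are 8.12, 7.12 and 3.55 CPM. The DGCR8 KO libraries held 4, 1 and 4 reads, which are 1.22, 0.338 and 1.62 CPM. The DDX6 KO libraries held 52 and 54 reads in clone 1 (18.9 and 18.7 CPM) and 47 and 43 reads in clone 2 (16.4 and 11.97 CPM). The third WT library, the deepest of all, had the lowest WT level. Group means were 6.26 ± 2.40 CPM (SD, n = 3) in WT, 1.06 ± 0.66 CPM (SD, n = 3) in DGCR8 KO and 16.5 ± 3.23 CPM (SD, n = 4) in DDX6 KO. The DGCR8 KO mean rests on 9 reads in all, which allow 0.472 to 1.96 CPM (95% Poisson interval, for counting error only).

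**Figure D1:**
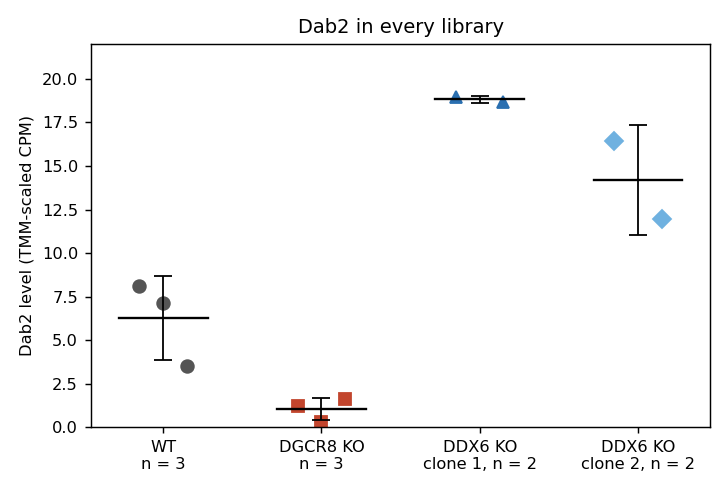
*Dab2* level in TMM-scaled CPM (linear axis) in each of the 10 libraries, with 1 point per library, a horizontal line at the group mean and bars of 1 SD. The 4 DDX6 KO libraries lie between 11.97 and 18.9 CPM, the WT libraries between 3.55 and 8.12 CPM and the DGCR8 KO libraries between 0.338 and 1.62 CPM.

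In the limma model fitted over 11683 genes, the log2 difference of *Dab2* between DGCR8 KO and WT was -2.36 (SE 0.65, limma adjusted p = 0.00807), and 3 of 3 libraries lay below the WT mean. A gene was called changed at adjusted p under 0.05 with a log2 difference beyond 1 in size, and by that rule 5.8% of all tested genes were called lower in DGCR8 KO. Of the members, 1 of 1 tested was called lower. Between DDX6 KO and WT the log2 difference of *Dab2* was 1.56 (SE 0.32; 4 of 4 libraries above the WT mean; limma adjusted p = 0.00105), where 7.55% of all tested genes were called higher. The share of all tested genes whose libraries all lay on 1 side of the WT mean was not counted. *Dab2* passed the level filter (3 CPM in at least 3 libraries) in the 3 WT libraries as well as in the 4 DDX6 KO libraries. The direct comparison of the knockouts, in which 17.1% of tested genes were called in either direction, gave a log2 difference of -3.92 (SE 0.61, limma adjusted p = 4.98e-05) for DGCR8 KO minus DDX6 KO, and 9.32% of tested genes were called lower there. This amounts to a 15.2-fold lower level in DGCR8 KO (95% interval 6.25 to 36.9). The comparisons with WT share the WT libraries. In these bulk libraries a change in the number of cells that hold *Dab2* and a change of its RNA per cell cannot be told apart.

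The DDX6 KO clones were then compared with WT separately. Clone 1 exceeded WT by 1.79 on the log2 scale (SE 0.34, limma adjusted p = 0.00138), where 6.89% of genes were called higher. Clone 2 exceeded WT by 1.35 (SE 0.35, limma adjusted p = 0.0105), where 6.76% were called higher. With libraries scaled to the spike-in RNAs instead of TMM factors, the adjusted p was 0.0546 for clone 1 and 0.431 for clone 2, and the single-clone calls were lost, while the call for both clones together held (log2 difference 1.51, limma adjusted p = 0.0305). Clone 2 differed from clone 1 by -0.44 (95% interval -1.10 to 0.21, limma adjusted p = 0.9998), a difference that did not pass the test. In that comparison 0.0428% of genes were called.

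**Figure D2:**
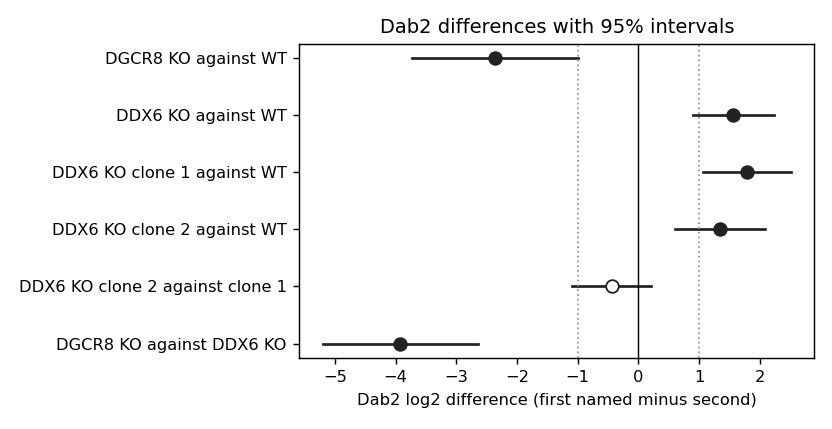
Log2 difference of *Dab2* in the 6 comparisons (points) with 95% intervals (lines), filled where the gene was called changed. Dotted lines mark a log2 difference of 1 in either direction. The difference is -2.36 for DGCR8 KO against WT, 1.56 for DDX6 KO against WT and -3.92 between the knockouts.

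The master regulators of the fate were barely detected in any genotype. GATA6 is the first factor of the primitive endoderm and the one opposed by NANOG in the epiblast. *Gata6* had 1, 0 and 1 reads in WT, 0, 4 and 1 in DGCR8 KO, 2 and 1 in DDX6 KO clone 1 and 1 and 3 in clone 2. Its only value above 3 reads was in the second DGCR8 KO library. *Gata4*, its close relative, had 4, 1 and 9 reads in WT, 2, 0 and 1 in DGCR8 KO, 4 and 2 in DDX6 KO clone 1 and 3 and 9 in clone 2. No DGCR8 KO library passed 3 reads of *Gata4*, whereas WT and DDX6 KO each had 2 that did, and the ranges overlapped.

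SOX17 and SOX7 are SOXF factors that follow GATA6 in the lineage, SOX7 being the later. *Sox17* had 1, 3 and 5 reads in WT, 0, 0 and 1 in DGCR8 KO, 4 and 0 in DDX6 KO clone 1 and 3 and 2 in clone 2. *Sox7* was at 0 in 9 of 10 libraries and had 1 read in the first library of DDX6 KO clone 1. Its 0 reads in WT allow up to 0.314 CPM over the group, and those in DGCR8 KO up to 0.344 CPM.

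HNF4A directs the metabolic genes of the visceral endoderm, and FOXA2 serves visceral and definitive endoderm alike. *Hnf4a* had 0, 1 and 0 reads in WT, none in DGCR8 KO, 1 and 1 in DDX6 KO clone 1 and 0 and 6 in clone 2, so that 1 library held 6 of the 8 DDX6 KO reads. *Foxa2* had 5, 2 and 5 reads in WT, 4, 5 and 2 in DGCR8 KO, 1 and 2 in DDX6 KO clone 1 and 4 and 3 in clone 2, and its levels overlapped in all groups. The 6 transcription factors summed to 4.02 ± 1.48 CPM (SD, n = 3) in WT, 2.30 ± 0.65 CPM (SD, n = 3) in DGCR8 KO and 4.27 ± 1.80 CPM (SD, n = 4) in DDX6 KO.

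PDGFRA, the receptor for PDGF-A, is an early surface marker of the lineage that is also made by fibroblasts. *Pdgfra* had 0, 1 and 3 reads in WT, 7, 9 and 1 in DGCR8 KO, 3 and 5 in DDX6 KO clone 1 and 3 and 2 in clone 2. The first and second DGCR8 KO libraries were the highest and the third lay among the WT values. The *Pdgfra* exons overlap *Mir7025* on the same strand, and how reads in the overlap were assigned is not stated.

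CUBN binds vitamin B12-intrinsic factor and other ligands, and AMN anchors it in the membrane. *Cubn* had 1 read in the second WT library and none elsewhere. *Amn* had 0, 1 and 4 reads in WT, 6, 2 and 10 in DGCR8 KO, 4 and 10 in DDX6 KO clone 1 and 2 and 1 in clone 2. The WT and DGCR8 KO ranges overlapped, and with 2 libraries per clone no difference between the clones is read from these counts.

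**Figure D3:**
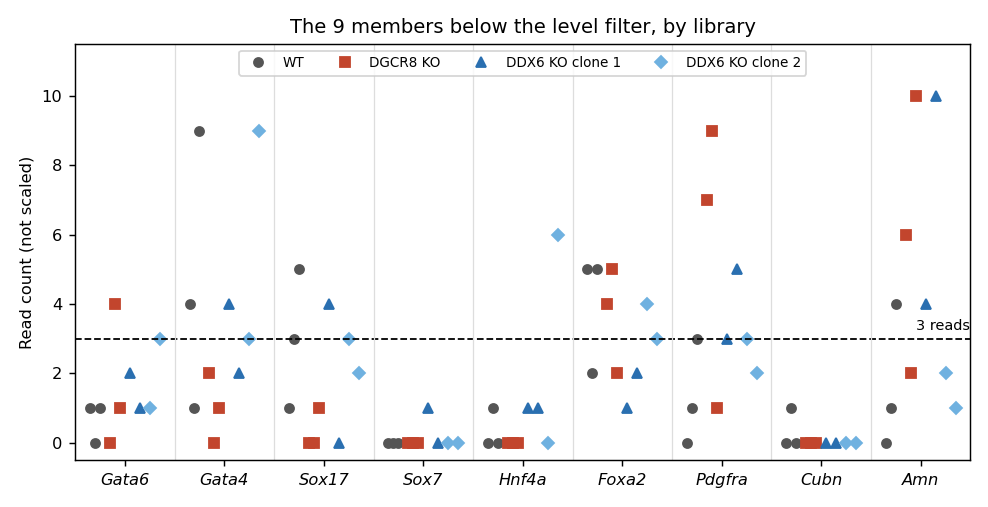
Read counts (not scaled for depth) of the 9 members below the level filter in each of the 10 libraries, with 1 symbol per library. The dashed line marks 3 reads. Of the 90 values, 32 are at 0, 37 lie between 1 and 3, and 21 lie above 3, the highest being 10.

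These 9 members did not enter the main test. When all 24468 genes with a read were fitted without a level filter, none of the 9 passed an adjusted p of 0.05 in any comparison. For DGCR8 KO against WT the smallest adjusted p was 0.0667 by limma (*Sox17*) and 0.0948 by edgeR's quasi-likelihood test (*Pdgfra*), and 4 of the 9 had an unadjusted p under 0.05 by either tool, where 26.7% of all fitted genes did by limma and 25.6% by edgeR. For DDX6 KO against WT the smallest were 0.206 (limma) and 0.288 (edgeR), and 0 of 9 had an unadjusted p under 0.05, where 26.2% and 24.8% of all genes did. For the knockouts against each other the smallest were 0.0771 (limma) and 0.0939 (edgeR), and 2 of 9 did, where 30.6% and 29.3% of all genes did. For single clones against WT the smallest limma adjusted p was 0.0570 for clone 1 (*Amn*) and 0.504 for clone 2, and between the clones it was 0.959. That none passed does not show that they did not change.

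DGCR8 is needed to make the miRNAs of the miR-290 and miR-302 clusters. Naive ESCs of the study's reporter line were positive for miR-290 and negative for miR-302. The members were searched for matches to the seed of these miRNAs, the bases that pair with targets. The mature sequences, from RefSeq (GRCm38.p6), are 3 of the 5 that share the seed AAGUGCU. They are printed because its complement was the motif searched. Capitals mark the seed, bases 2 to 8.
mmu-miR-291a-3p: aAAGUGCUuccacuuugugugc
mmu-miR-294-3p: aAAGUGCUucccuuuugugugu
mmu-miR-302d-3p: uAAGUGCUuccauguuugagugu

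The motif was AGCACTTA or either 7-base part of it (its first or its last 7 letters), read on the sense strand of the annotated 3′ UTR of 1 Gencode M21 transcript per gene. A match was held by 3357 of 20980 genes with a 3′ UTR and by 1 of the 10 members, *Hnf4a*. The shorter core GCACTT was held by 26.2% of genes and by 3 of 10 members, *Hnf4a*, *Dab2* and *Pdgfra*. The matches follow, with capitals on the motif and coordinates on the plus strand of GRCm38, to set the *Dab2* sequence beside the longer match.
Hnf4a, chr2:163571338-163571364: actcacaggaAGCACTTgtcccccctg
Dab2, chr15:6440640-6440665: gtcttcttgtGCACTTttctgtatgc
Pdgfra, chr5:75197975-75198000: gttaactgttGCACTTttgaatgtcc
The *Dab2* match starts at base 1874 of a 3′ UTR of 1929 bases. These are matches of letters only, and binding was not measured.

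Other genes of the early primitive endoderm and of extraembryonic endoderm, many of them basement membrane components, were far better measured than the members, and several are also made by ESCs. Of 20 such genes, 17 were tested. In DGCR8 KO, 6 were called lower and 1 higher than in WT, with a median log2 difference of -0.43 against 0.00 for all tested genes, where 14.7% of all genes were called in either direction and 8.93% higher. Besides the 4 below, the collagen and laminin genes *Col4a1* and *Lamb1* were called lower, and the gene called higher was *Tcf7l2*, a Wnt pathway factor (log2 difference 1.41, SE 0.17). *Zfpm1*, a GATA cofactor, fell from 10.1 ± 0.57 to 3.20 ± 1.59 CPM (SD, n = 3 each; log2 difference -1.76, SE 0.37, limma adjusted p = 0.00109). *Lrp2*, the endocytic receptor megalin, fell from 45.4 ± 14.9 to 16.6 ± 10.4 CPM (log2 difference -1.50, limma adjusted p = 0.00310). The collagen chain gene *Col4a2* fell by 1.43 on the log2 scale (limma adjusted p = 0.00879). The call was lost without the second DGCR8 KO library and with spike-in scaling (limma adjusted p = 0.0538). The laminin gene *Lama1* fell by 2.09 (limma adjusted p = 0.0175), and its call was lost without the third WT, the first DGCR8 KO or the second DGCR8 KO library and by DESeq2 (adjusted p = 0.131).

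In DDX6 KO, 2 of these 17 genes were called lower and 1 higher than in WT, with a median log2 difference of -0.09 against 0.02 for all tested genes, where 11.2% of all genes were called in either direction and 3.66% lower. Without the second WT library 5 were called, *Lrp2* and *Fgfr2* being added, and *Fgfr2* then met the level filter only through DDX6 KO libraries. By limma adjusted p alone, 2 of the 17 were higher and 6 lower in DDX6 KO, beside 2089 and 1944 of all tested genes. In DGCR8 KO 2 were higher and 7 lower, beside 2322 and 1924. *Zfpm1* (-0.95) and *Lrp2* (-0.79) were among the lower in DDX6 KO, as in DGCR8 KO. The *Lrp2* difference did not pass by edgeR (adjusted p = 0.0599) or DESeq2 (adjusted p = 0.206). *Cited1*, a transcriptional coactivator, fell from 17.1 ± 3.99 to 5.21 ± 3.94 CPM (log2 difference -1.99, SE 0.47, limma adjusted p = 0.00344), a call lost with clone 1 alone (adjusted p = 0.0817). *Nid1*, the basement membrane linker nidogen, fell from 296 ± 24.8 to 101 ± 9.94 CPM (log2 difference -1.55, SE 0.13, limma adjusted p = 2.00e-07). *Lamb1*, a laminin chain, had the same order of levels as *Dab2*. It rose from 30.7 ± 2.29 CPM in WT to 68.5 ± 6.63 CPM in DDX6 KO (log2 difference 1.16, SE 0.16, limma adjusted p = 3.29e-05) and fell to 14.5 ± 4.84 CPM in DGCR8 KO (log2 difference -1.08, SE 0.23, limma adjusted p = 0.00122).

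Of 20 genes of the visceral endoderm, 7 were tested. Over all tested genes, 8.93% were called higher and 5.8% lower in DGCR8 KO, and 7.55% and 3.66% in DDX6 KO. Of the serum protein genes below the filter, *Afp*, *Ttr* and *Apoa1* lay at or below 1.22 CPM in every library. *Apob*, the main protein of lipoprotein particles, had no read in WT and lay between 1.01 and 7.29 CPM in DGCR8 KO and between 1.09 and 2.10 CPM in DDX6 KO, and with no filter or a filter of 1 CPM, which it passed only through the knockouts, it was called higher in both. In DGCR8 KO, 2 of 7 were called higher and none lower, with a median log2 difference of 0.04. *Lefty1*, a Nodal antagonist that ESCs also make, rose from 53.2 ± 37.4 to 796 ± 393 CPM (log2 difference 4.11, SE 0.42), and *Apoe*, a lipid carrier, rose from 117 ± 32.2 to 293 ± 34.9 CPM (log2 difference 1.31, SE 0.18). In DDX6 KO the median was -0.12 and 1 of 7 was called higher, the lipocalin gene *Apom*, at 13.7 ± 1.84 CPM (SD, n = 4) against 6.67 ± 2.51 CPM (SD, n = 3) in WT (log2 difference 1.12, SE 0.33, limma adjusted p = 0.0127), and 0 were called without the second WT library, with clone 1 alone (adjusted p = 0.0891) or with spike-in scaling (adjusted p = 0.131).

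Of 15 genes of the parietal endoderm, 10 were tested, beside the same shares over all tested genes (8.93% higher and 5.8% lower in DGCR8 KO, 7.55% and 3.66% in DDX6 KO). In DGCR8 KO, 4 were called higher (*Vim*, *Krt8*, *Snai1* and *Fst*) and 3 lower (*Cldn6*, *Lamb1* and *Col4a1*), with a median log2 difference of 0.13. *Vim*, the intermediate filament of mesenchymal cells, rose from 113 ± 36.3 to 390 ± 49.2 CPM (log2 difference 1.78, SE 0.17), and *Cldn6*, a tight junction gene, fell from 5.31 ± 0.37 to 0.788 ± 1.36 CPM (log2 difference -3.66, SE 0.79, limma adjusted p = 0.00140). In DDX6 KO, 3 were called higher and none lower, with a median of 0.40. The keratin genes *Krt8* and *Krt18* rose by 1.94 (SE 0.40, limma adjusted p = 0.00111) and 1.29 (SE 0.35, limma adjusted p = 0.00756), and *Lamb1*, which stands in both lists, was the third. The *Krt18* call was lost with clone 1 alone (limma adjusted p = 0.0643) and with spike-in scaling (limma adjusted p = 0.0750). *Krt8* also rose in DGCR8 KO, by 1.43 (SE 0.43, limma adjusted p = 0.0149). This call was lost without the third WT or the first DGCR8 KO library and with spike-in scaling (limma adjusted p = 0.183). *Krt8* met the level filter only with knockout libraries counted (2.66 to 5.25 CPM in WT), a limit on its calls in both knockouts. *Snai1*, a repressor of E-cadherin, was at 4.34 ± 1.47 CPM in WT and 10.5 ± 4.67 CPM in DGCR8 KO. It too met the level filter only with knockout libraries counted (2.71 to 5.54 CPM in WT). Its call was lost without the first WT, the second WT or the first DGCR8 KO library. The call was also lost with no filter (limma adjusted p = 0.0517) and with spike-in scaling (limma adjusted p = 0.223).

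**Figure D4:**
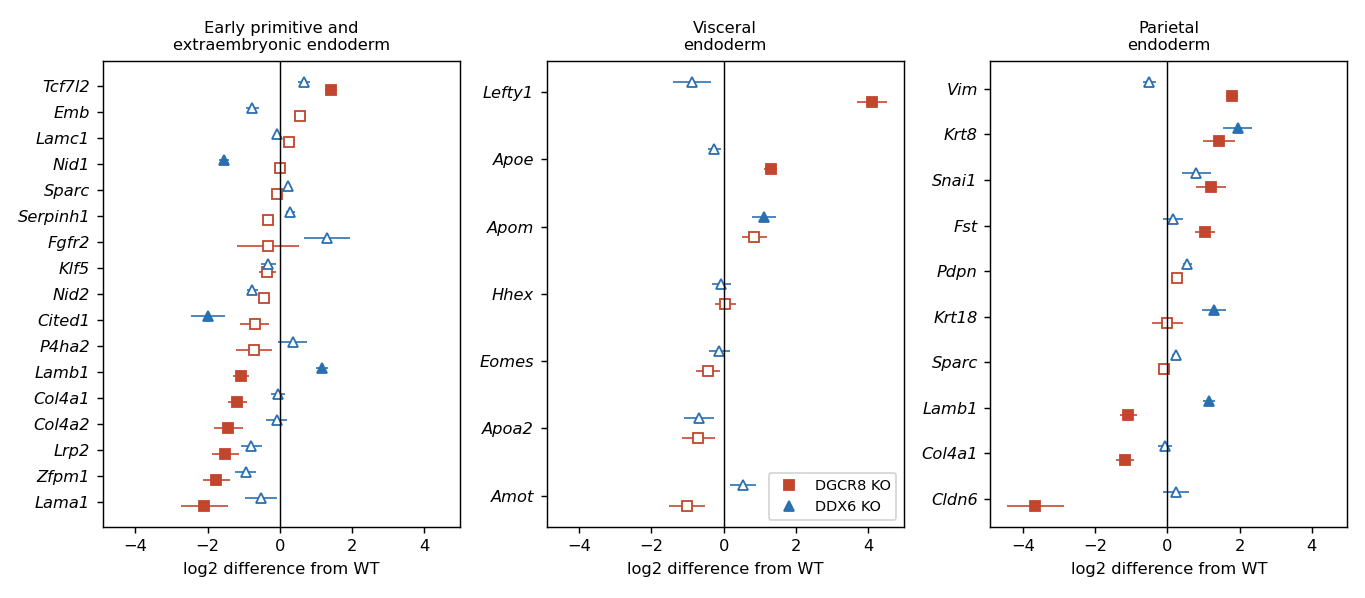
Log2 difference from WT of the tested genes of 3 endoderm lists, with bars of 1 SE, for DGCR8 KO (squares) and DDX6 KO (triangles). Filled symbols were called changed, and the lists share *Lamb1*, *Col4a1* and *Sparc*. *Lamb1* lies at -1.08 in DGCR8 KO and at 1.16 in DDX6 KO.

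The signals that lead into the lineage, FGF4, PDGF and LIF family ligands with their receptors and adaptors, were present. Of 14 tested of 18, 2 were called higher and none lower in DGCR8 KO, with a median log2 difference of 0.09. None was called in DDX6 KO, with a median of -0.13. *Fgfr2* was called higher there without the second WT library, when it met the level filter only through DDX6 KO libraries. Of all tested genes, 8.93% were called higher and 5.8% lower in DGCR8 KO, and 7.55% and 3.66% in DDX6 KO. By limma adjusted p alone, whatever the size, 5 of the 14 were higher and 3 lower in DGCR8 KO, and 1 was higher and 3 lower in DDX6 KO. Of all 11683 tested genes, 2322 were higher and 1924 lower in DGCR8 KO by that rule, and 2089 and 1944 in DDX6 KO. *Il6st*, the shared receptor subunit gp130, rose from 32.8 ± 3.99 to 117 ± 10.9 CPM in DGCR8 KO (log2 difference 1.81, SE 0.15), and *Sos1*, the exchange factor that activates RAS, rose from 81.9 ± 9.33 to 164 ± 23.8 CPM (log2 difference 1.02, SE 0.13). The *Sos1* difference lay close to the limit of 1, and only *Il6st* of these 14 was called without the second DGCR8 KO library, with the replicate number as a block (*Sos1* 0.997), and with no filter, median-of-ratios size factors, DESeq2, limma-trend or spike-in scaling. *Fgfr1* fell from 100 ± 19.0 to 54.2 ± 8.47 CPM in DGCR8 KO (log2 difference -0.86, limma adjusted p = 0.000667). It was called lower there without the third WT library (-1.05). *Pdgfc* rose by 0.95 in DGCR8 KO and was called higher without the first WT (1.04) or the third DGCR8 KO library (1.08). Both lost adjusted p under 0.05 with spike-in scaling. *Fgf4*, the epiblast ligand, was at 299 ± 17.3 CPM in WT and at 223 ± 19.0 CPM in DDX6 KO (log2 difference -0.43, SE 0.10, limma adjusted p = 0.00318).

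DAB2, CUBN and AMN act in endocytosis with LRP2, clathrin and the AP2 complex. Of 12 such partner genes, all tested, 1 was called lower in DGCR8 KO (*Lrp2*, above) and none in DDX6 KO. Of all tested genes, 5.8% were called lower in DGCR8 KO and 3.66% in DDX6 KO. In DDX6 KO *Lrp2* was called lower without the second WT library, and *Dab1*, at a log2 difference of -0.99, was called lower by edgeR and DESeq2, with no filter or the replicate block, and without the third WT library, the second library of clone 1 or the first of clone 2. In DGCR8 KO *Dab1* was called higher without the second DGCR8 KO library. *Dab1*, the neuronal relative of *Dab2*, had the opposite order of levels, at 13.9 ± 2.72 CPM in WT, 24.9 ± 6.64 CPM in DGCR8 KO and 6.63 ± 1.27 CPM in DDX6 KO. The log2 difference of *Dab1* between the knockouts was 1.87 (SE 0.27, limma adjusted p = 2.28e-05).

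Markers of other cell types, some of which can carry *Dab2*, *Pdgfra*, *Foxa2* or *Sox17*, were read beside the members. The lists overlap with the members: the fibroblast list includes *Pdgfra*, and the list of mesoderm and definitive endoderm includes *Foxa2* and *Sox17*. Of 12 fibroblast genes, 3 were tested (*Twist1*, *Col1a1* and *Acta2*), and the summed level was 7.76 to 12.9 CPM in WT, 7.70 to 13.4 CPM in DGCR8 KO and 9.80 to 17.1 CPM in DDX6 KO. *Dcn*, *Fap* and *Postn* were at 0 in every WT and DDX6 KO library, whereas the other genes of the list had reads in all genotypes. *Col1a1*, the main fibroblast collagen, was at 1.87 ± 0.52 CPM in WT, 0.563 ± 0.14 CPM in DGCR8 KO and 4.04 ± 1.93 CPM in DDX6 KO, the same order as *Dab2*. It passed the level filter only through DDX6 KO libraries, so no call is given for it.

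Of 10 trophoblast genes, 4 were tested, and the summed level was 76.7 to 84.1 CPM in WT, 72.5 to 86.8 CPM in DGCR8 KO and 85.2 to 104 CPM in DDX6 KO. *Gata2*, a trophoblast and blood factor, was at 3.19 CPM in WT, 1.71 CPM in DGCR8 KO and 11.52 CPM in DDX6 KO. It met the level filter only when DDX6 KO libraries were counted, so no call is given for it. *Elf5*, which defines trophoblast stem cells, was at 0 in all libraries of WT, DGCR8 KO and DDX6 KO. *Krt7*, a keratin gene of the same list and below the filter, had no read in WT. It lay between 0.338 and 0.609 CPM in DGCR8 KO and between 0.278 and 2.08 CPM in DDX6 KO. With no filter it was called higher in DDX6 KO, a call that rests on knockout reads alone. Of 10 genes of mesoderm and definitive endoderm, 3 were tested. In DDX6 KO the receptor gene *Kdr* was called higher and the organizer gene *Gsc* lower. *Kdr* met the level filter only with knockout libraries counted (1.43 to 4.21 CPM in WT). The *Gsc* call was lost with the replicate number as a block (limma adjusted p = 0.0775) and without the second or the third WT library. That call was also lost without any of 3 of the 4 DDX6 KO libraries. Of 7 neuroectoderm genes, 5 were tested, with 1 called higher and 2 lower in DGCR8 KO (*Pax6*, *Nes* and *Tubb3*, of which *Pax6* passed the level filter only through the 3 DGCR8 KO libraries and was not tested without any 1 of them) and 1 higher and 1 lower in DDX6 KO (*Sox1* and *Otx2*). None of the 10 naive epiblast genes, all tested, was called in either knockout against WT, although *Klf2* was called higher in DGCR8 KO without the first WT or the second DGCR8 KO library. By limma adjusted p alone, 2 of the 10 were higher and 5 lower in DGCR8 KO, and 3 were higher and 1 lower in DDX6 KO, with log2 differences between -0.50 and 0.92. Of all 11683 tested genes, 2322 were higher and 1924 lower in DGCR8 KO by that rule, and 2089 and 1944 in DDX6 KO. With the log2 limit, 8.93% of all tested genes were called higher and 5.8% lower in DGCR8 KO, and 7.55% and 3.66% in DDX6 KO. The part of these other cell types in the *Dab2* result was not tested.

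**Figure D5:**
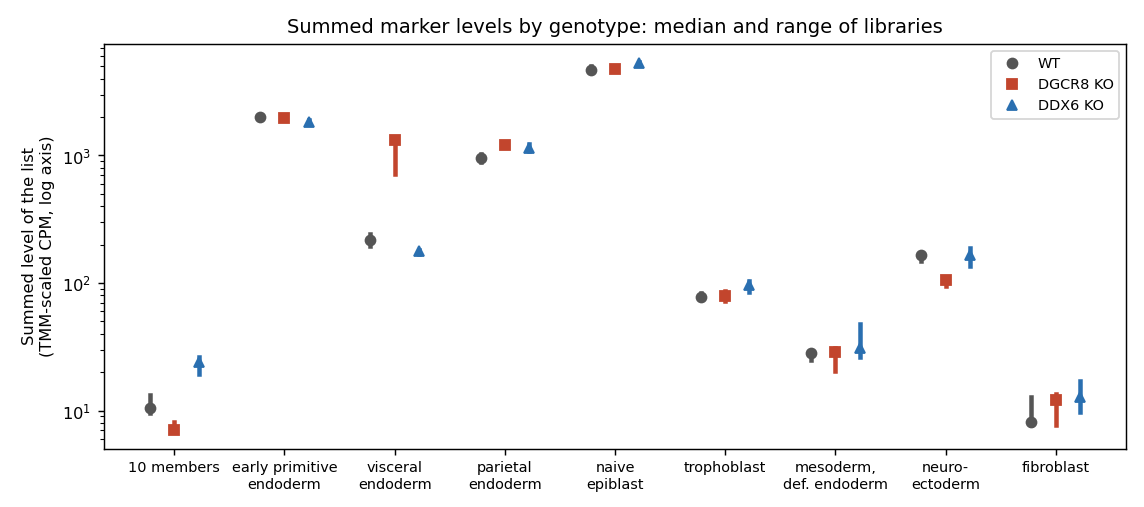
Summed level of each marker list in TMM-scaled CPM (log axis) by genotype, with the symbol at the median of the libraries and the line from the lowest to the highest library. The 10 members sum to 7.01 to 26.2 CPM, beside 4636 to 5366 CPM for the naive epiblast genes. The fibroblast sum includes the member *Pdgfra*, and the sum for mesoderm and definitive endoderm includes *Foxa2* and *Sox17*.

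Of the 8330 genes that averaged 10 CPM or more, those whose log2 level followed *Dab2* most closely over the 10 libraries were *Samd8* (Pearson r = 0.968), *Lpcat3* (r = 0.965) and *Spc25* (r = 0.964). These are descriptions over libraries that share genotype and depth. *Samd8*, for example, was at 45.0 ± 8.28 CPM in WT, 29.5 ± 2.89 CPM in DGCR8 KO and 68.4 ± 4.31 CPM in DDX6 KO. The chromosome that carries *Dab2* did not move as a whole, since the 442 tested genes of chromosome 15 had median log2 differences of -0.01 in DGCR8 KO and -0.06 in DDX6 KO. *Rictor*, which starts 321633 bases from *Dab2*, was higher in both knockouts, with log2 differences of 1.38 (SE 0.13) in DGCR8 KO and 0.77 (SE 0.13) in DDX6 KO.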

How the data were processed

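Reads were trimmed with cutadapt 1.14 and aligned to mm10 with STAR 2.5.3a, keeping unique alignments. The authors deposited raw counts per gene from featureCounts 1.5.3, counted by strand on Gencode M14 with 92 spike-in RNAs; no use of molecular identifiers was stated. Spike-ins took 1.10% to 2.36% of reads and were left out of library totals. The counts were fitted here with limma 3.58.1 (voom, TMM factors, R 4.3.3) by genotype over 11683 genes with 3 CPM in at least 3 libraries, and by clone in a second model, with Benjamini-Hochberg adjustment. Further genes named are, per list, up to 4 with the largest difference at adjusted p under 0.05, and the 3 best-detected markers of other cell types. *Nid1* and other members of a list were also named where another comparison had named them. Named after their values were seen were *Afp*, *Ttr*, *Apoa1*, *Apob*, *Dcn*, *Fap*, *Postn*, *Elf5*, *Krt7*, *Tcf7l2*, *Col4a1*, *Fst*, *Fgfr2* and *Rictor*. Alternatives used edgeR 4.0.16 and DESeq2 1.42.0. The labels do not say whether replicate numbers mark pairs, and the main model did not use them. Same-numbered WT and DGCR8 KO libraries deviated together (r = 0.138, 0.260 and 0.274). For the DDX6 KO clones against WT the first replicates gave 0.158 and 0.152, and the second gave 0.0719 and 0.0113. Fits with the replicate number as a block are given below. The step was tested on simulated data. The members and lists were chosen with earlier results of these data known. 193 genes without a symbol were not searched.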

Additional observations from a re-analysis of the deposited data

Results flagged for a closer look

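*Dab2* moved in opposite directions in the knockouts, and the direct test of the difference passed, with a log2 difference of -3.92 for DGCR8 KO minus DDX6 KO. The DGCR8 KO libraries hold between 1 and 4 reads of it.

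Among 57 genes checked over the 4 DDX6 KO libraries, 3 had a library far from the rest. Chance alone gives about 1 in 20 such cases if values are normally distributed, and 3 of 57 is close to that. For *Sox7* the first library of clone 1 held the only read. The gap was therefore bound to be the whole range (1 of 1), and the flag says nothing about that library. For *Col1a1* the same library, at 6.92 CPM, stood apart from the others (gap 0.869 of the range). For *Klf4*, a naive epiblast factor, the second library of clone 1 stood apart at 1189 CPM (gap 0.928 of the range).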

How the results depend on the processing

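The call of *Dab2* held in every alternative run on the genotype comparisons. Its log2 difference ranged from -2.86 to -1.81 for DGCR8 KO against WT over 20 alternatives, with the largest adjusted p (0.0413) without the second DGCR8 KO library. It ranged from 1.06 to 1.80 for DDX6 KO against WT over 23, with the largest adjusted p (0.0310) without the third WT library. It ranged from -4.25 to -3.37 between the knockouts over 23. With the replicate number as a block the differences were -2.44, 1.21 and -3.66, and 1.42 and 1.02 for clones 1 and 2 against WT, and no call of *Dab2* changed; of 82 differences of other named genes it took 2 past adjusted p = 0.05, *Gsc* and *Zfpm1* in DDX6 KO. Spike-in scaling, added after seeing the data, gave 1.81 for clone 1 (adjusted p = 0.0546) and 1.22 for clone 2 (adjusted p = 0.431), so that 0 members were called in either. The cause was not tested. Spike-in scaling moved the median of all genes to -0.15 (DGCR8 KO against WT) and -0.20 (between the knockouts), and library totals moved it to 0.15 (DDX6 KO against WT) and -0.13 (between the knockouts). Summing the libraries of a clone, also added later, kept both calls that involve DDX6 KO (1.57 against WT and -3.94 between the knockouts). Of 1780 refits of the other named genes, 142 lost adjusted p under 0.05, 42 of them under spike-in scaling and 61 on leaving out a library, and 0 changed direction. All genes called for DDX6 KO against WT numbered 1310, and 724 under spike-in scaling and 822 with a filter of 10 CPM. The depth, at which 3 reads are up to 1.43 CPM, limits what can be said of the other 9 members.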
